A study of Homo sapiens with 18 samples.

Results

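Collagens, laminins and the proteases that cut them were taken from the gene symbols of the 5 tables deposited with this RNA-seq study of the pancreatic carcinoma cell line MIA PaCa-2. A symbol was kept when it named a collagen chain, a laminin chain, a matrix metalloproteinase (MMP), an ADAMTS protease or a tissue inhibitor of metalloproteinases (TIMP), or was SPARC, and names with an antisense suffix were left out. This gave 75 of the 16616 symbols in any table: 34 collagens, 12 laminins, 15 MMPs, 10 ADAMTS proteases, 2 TIMPs, SPARC and COL4A3BP. COL4A3BP encodes a ceramide transfer protein (current symbol CERT1) and was matched by its name alone, so it is counted apart from the collagens. The names COL6A4P1 and LAMB2P1 are those of a collagen-like gene annotated as non-coding and of a laminin pseudogene.

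The study comprised 18 libraries in 6 groups of 3. GemMIA-R3 cells, a single line selected from MIA PaCa-2 in rising concentrations of gemcitabine and freed of the drug before use, received 400 nM of the G-quadruplex ligand CM03 or the vehicle PBS for 6 h or 24 h, and parental MIA PaCa-2 cells without CM03 were collected at both times. Of the 5 tables, 1 for each time sets CM03 against control in GemMIA-R3 cells, 1 sets GemMIA-R3 against parental cells at 24 h, and 1 for each time sets CM03 against control in parental cells, with libraries of an earlier study. Beside each symbol they hold the authors' own comparison (a fold change, an FDR and subset marks), which is not used here, and values per library were not analysed. No transcript level, change or test is therefore given for any gene. What follows describes which of the genes each table lists and how many quadruplex motifs each gene holds.

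Collagens are triple-helical proteins that form the fibrils and sheets of the extracellular matrix, and laminins are three-chain glycoproteins that, with network-forming collagens, build the basement membrane under epithelia. MMPs and ADAMTS proteases cut these proteins or process their precursors, and TIMPs block the MMPs. Pancreatic ductal carcinoma is known for a dense collagen-rich stroma, most of which is laid down by fibroblasts rather than by the carcinoma cells. A G-quadruplex is a stack of guanine tetrads that DNA with several nearby runs of guanines can fold into. The canonical motif has at least 4 runs of at least 3 guanines separated by loops of 1 to 7 bases, and a match is a property of the letters and does not show that the structure forms in cells.

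The motifs nearest to the start of the genes lay in tight clusters in some members. For each of the 4 larger families, the stretch before the start that held the most motifs is shown (both MMPs that held any, with 1 each), with the motifs in capitals and the other bases in lower case. Each is written 5′ to 3′ along the coding strand, so a motif written in runs of C has its guanine runs on the template strand. The letters are from RefSeq (GRCh38.p14) and overlap no GENCODE exon of the gene, and the start of MMP11 used here lies inside the longer GENCODE gene. COL18A1 encodes the core of a basement membrane proteoglycan from which the fragment endostatin is cut, LAMA5 an alpha chain of laminins, ADAMTS14 a protease that trims the amino-terminal propeptide of procollagens, MMP11 stromelysin 3, and MMP14 a membrane-bound MMP that activates proMMP2. The stretches are at chr21:45404915-45405156 (plus strand), chr20:62367358-62367446 (minus strand), chr10:70672368-70672502 (plus strand), chr22:23772763-23772820 (plus strand) and chr14:22836335-22836380 (plus strand).
COL18A1: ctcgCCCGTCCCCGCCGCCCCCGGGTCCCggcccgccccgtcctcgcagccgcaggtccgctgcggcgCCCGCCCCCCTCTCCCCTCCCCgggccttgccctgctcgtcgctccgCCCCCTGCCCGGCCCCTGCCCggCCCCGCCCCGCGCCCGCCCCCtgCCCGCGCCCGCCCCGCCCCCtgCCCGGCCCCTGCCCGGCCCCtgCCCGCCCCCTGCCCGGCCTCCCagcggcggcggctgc
LAMA5: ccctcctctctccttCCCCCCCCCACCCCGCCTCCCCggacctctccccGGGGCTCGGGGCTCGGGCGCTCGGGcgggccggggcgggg
ADAMTS14: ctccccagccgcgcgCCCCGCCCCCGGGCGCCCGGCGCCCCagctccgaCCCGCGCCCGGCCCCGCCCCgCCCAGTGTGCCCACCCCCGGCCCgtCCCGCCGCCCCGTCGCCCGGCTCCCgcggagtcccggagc
MMP11: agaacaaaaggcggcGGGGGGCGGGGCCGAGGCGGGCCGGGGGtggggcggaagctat
MMP14: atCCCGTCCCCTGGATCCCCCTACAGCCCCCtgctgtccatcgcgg

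The stretch of COL18A1 holds 7 motifs, all with their guanine runs on the template strand, and 5 of them follow each other with gaps of only 2 bases. ADAMTS14 holds 4, also all on the template strand. LAMA5 holds 1 on each strand, MMP11 holds 1 on the coding strand and MMP14 holds 1 on the template strand. Of 27305 genes with a start in the RefSeq table, 11 (0.0403%) had as many motifs as COL18A1 or more in the 250 bases before it.

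A RefSeq window was matched for 49 of the 75 genes, and 22 of these (44.9%) held at least 1 motif in the 250 bases before the start. The same was true of 40.8% of the 9427 matched genes of the parental tables, and of 26.3% of all 27305 genes in the RefSeq table, which include many that those tables do not list. The 49 also include members that the parental tables do not list under these symbols, such as MMP10 and MMP20. Of such members only COL15A1 held a motif, so the gene sets behind the shares differ. These shares take the richest window where a gene has several, and counted window by window the share was 23.5% of 35116. By family, a motif was found in 14 of 24 collagens (58.3%), 3 of 9 laminins (33.3%), 2 of 7 MMPs (28.6%) and 3 of 7 ADAMTS proteases (42.9%). TIMP1 and SPARC, the only other genes with a window, held none. At least 2 motifs were found in 8 of the 49 members, beside 1312 of the 9427 matched genes of the parental tables. Members of a family were few, and these shares are descriptions with no test. The laminins were LAMA5, the beta chain gene LAMB2 and the gamma chain gene LAMC1, and the ADAMTS proteases were ADAMTS7, ADAMTS10 and ADAMTS14.

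**Figure D1:**
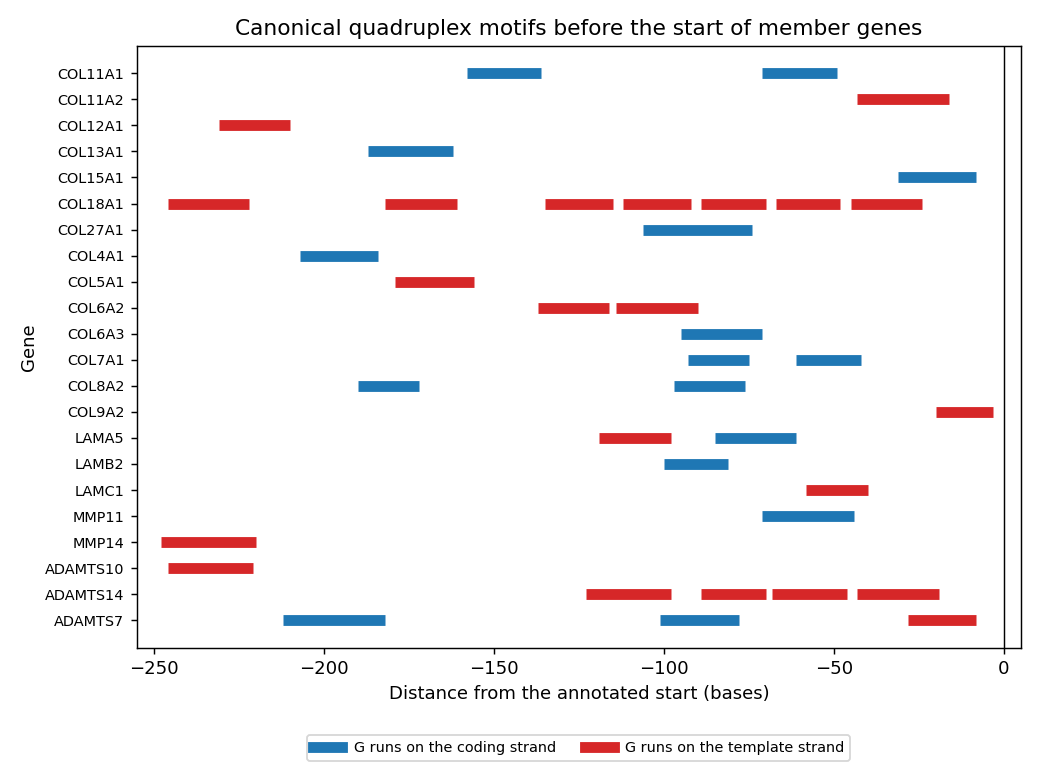
Each bar is a canonical quadruplex motif in the 250 bases before the annotated start of 22 member genes, by its distance from the start in bases, with blue for guanine runs on the coding strand and red for the template strand. COL18A1 holds 7 bars and ADAMTS14 holds 4, all red, whereas both bars of COL7A1, COL8A2 and COL11A1 are blue.

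Of the 38 motifs in these windows, 16 had their guanine runs on the coding strand and 22 on the template strand, and 24 belonged to collagens. A pair of motifs on the coding strand was found in COL7A1, the chain of the anchoring fibrils under the epidermis, in COL8A2, a short-chain collagen of the corneal basement membrane, and in COL11A1, a fibrillar collagen of cartilage. COL6A2, a chain of the beaded filaments of collagen VI, had its pair on the template strand. ADAMTS7, a protease of cartilage oligomeric matrix protein, had 2 on the coding strand and 1 on the template strand, the latter 8 to 28 bases before the start. In COL9A2, a fibril-associated collagen of cartilage, the single motif ended 3 bases before the start. LAMA2, LAMA3, LAMA4, LAMB1, LAMB3 and LAMB4 had no match in this window. The genes named in this paragraph, and those whose sequence is shown, were chosen after their motifs were seen.

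Across the whole gene, collagens held the largest numbers of putative quadruplexes (PQs) among the families by their median. PQs are the authors' number for each gene in the parental tables. By the paper's Methods, it counts motifs in the promoter, exons and introns. The median was 31.5 for 28 collagens (range 1 to 141), 21 for 9 ADAMTS proteases (0 to 61), 11 for 10 laminins (4 to 91) and 9 for 12 MMPs (0 to 33), against 5 over the 13503 genes of these tables. The mean over all genes was 9.50, and 9.46% of them had more than 23 PQs, their 90th percentile. That number was passed by 15 collagens (53.6%), 4 laminins (40.0%), 3 ADAMTS proteases (33.3%) and 1 MMP (8.33%). The ranges of the families overlapped widely, the genes were chosen by name, and no test of the difference between families was made.

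**Figure D2:**
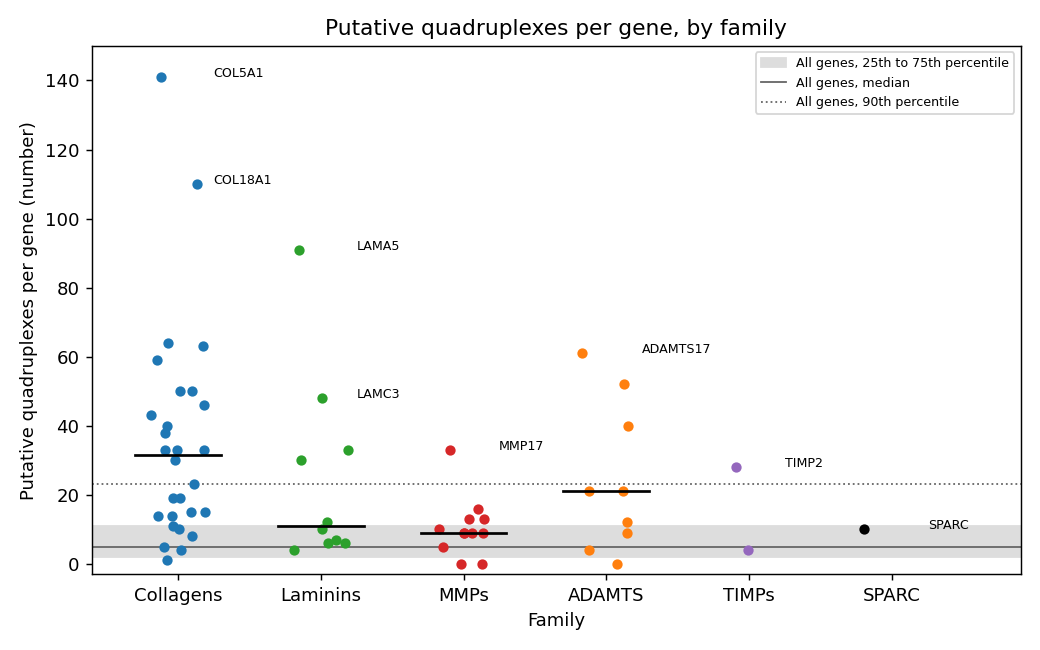
Each point is the authors' number of putative quadruplexes of 1 gene (vertical axis) by family, with black bars for the medians of families of more than 2 genes. The shaded band and lines show the quartiles (2 and 11), the median (5) and the 90th percentile (23) of all genes, and COL5A1 at 141, COL18A1 at 110 and LAMA5 at 91 stand above the other members.

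Among the collagens listed under their current symbols, COL5A1 held 141 PQs, more than any other member. COL5A1 encodes a chain of collagen V, which starts the assembly of collagen I fibrils, and 99.9% of genes had fewer. COL18A1 followed with 110. COL27A1, a fibrillar collagen of cartilage, held 64, and COL13A1, a collagen anchored in the plasma membrane, held 63. COL4A2, whose product forms the sheet of the basement membrane with that of COL4A1, held 59 and its partner 30. At the other end, COL3A1, a fibrillar collagen of soft tissues, held 1, COL1A2 held 4, COL5A2 held 5, COL21A1 held 8 and COL11A1 held 10.

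Chains that assemble into one molecule could differ widely. Collagen I is built from the products of COL1A1 and COL1A2, which held 19 and 4 PQs. The 3 chains of collagen V held 141 (COL5A1), 5 (COL5A2) and 50 (COL5A3). Those of collagen VI held 38 (COL6A1), 33 (COL6A2) and 15 (COL6A3), and those of collagen XI that have their own genes held 10 (COL11A1) and 46 (COL11A2). The fibrillar collagens COL3A1 and COL5A2 lie close together on chromosome 2 and were both at the low end, while COL6A1, COL6A2 and COL18A1 on chromosome 21 held 33 or more. COL26A1 is listed under that symbol in tables of GemMIA-R3 cells only, but the parental tables have its older name EMID2 with 69 PQs. That number lies between those of COL18A1 and COL27A1, and it is not part of the median, range and share given for collagens.

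Among the laminins, the alpha chain gene LAMA5 held 91 PQs and the gamma chain gene LAMC3 held 48. LAMA3 and LAMB3, whose products are partners in the laminin of epithelial anchoring complexes, held 33 and 12. LAMA2, the alpha chain of muscle laminin, held 30 and LAMA4, an alpha chain of vessels, held 10. The widely used beta and gamma chain genes held fewer than these alpha chain genes: LAMB1 and LAMC1 held 6 each and LAMB2 held 7. The median over all genes of the parental tables was 5. LAMB4 and LAMB2P1 have no PQ number.

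The MMPs spanned 0 to 33 PQs, and the 5 highest were MMP17, MMP25, MMP15, MMP16 and MMP11. MMP17, which is tethered to the membrane by a lipid anchor, held 33 PQs, and MMP25, the other MMP with such an anchor, held 16. The transmembrane MMP15 and MMP16 held 13 each and MMP14 held 9. MMP11 held 10. MMP2, a gelatinase that degrades basement membrane collagen, MMP19 and MMP24 held 9 each, and MMP28 held 5. The interstitial collagenase MMP1 and matrilysin, MMP7, lie on chromosome 11 and held 0, and no motif was found in them when hg38 was scanned.

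ADAMTS17 held 61 PQs, the most of its family. ADAMTS14 held 52, while ADAMTS3, which shares its action on procollagens, held 12. ADAMTS7 held 40, and ADAMTS10, a protease of microfibril assembly, and ADAMTS13, which cuts von Willebrand factor, held 21 each. The proteases that cut aggrecan were lower, with 9 for ADAMTS4, 4 for ADAMTS15 and 0 for ADAMTS1, in which the scan of hg38 found 4 motifs, all in the promoter. Of the TIMPs, TIMP2 held 28 and TIMP1 held 4. SPARC, a collagen-binding matricellular protein, held 10, and COL4A3BP held 8.

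Gene length went with these numbers in part. Per kb of gene, the median PQs were 0.454 for collagens, 0.466 for ADAMTS proteases, 0.397 for MMPs and 0.0996 for laminins, against 0.122 over the 12950 genes of the table that matched GENCODE. On this scale the MMPs stood near the collagens and the laminins were below the median gene. Lengths are those of GENCODE genes, whereas the gene span behind the PQs is not given. The highest value over all genes was 455 per kb, so these spans do not match for every gene. The median gene length was 53.3 kb for the collagens, 82.4 kb for the laminins, 45.0 kb for the ADAMTS proteases and 18.6 kb for the MMPs. LAMA2, at 633 kb the longest member, held 0.0474 PQs per kb, while LAMA5 held 1.53 over 59.4 kb. The densest members were COL6A1 at 1.63 per kb, COL11A2 at 1.54, LAMA5 at 1.53 and MMP17 at 1.41. Across 63 members Spearman's rho of PQs with gene length was 0.349 and Pearson's r with its logarithm 0.340, and across the 12950 genes they were 0.476 and 0.407. Genes are not independent replicates, and longer genes have more room for motifs.

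**Figure D3:**
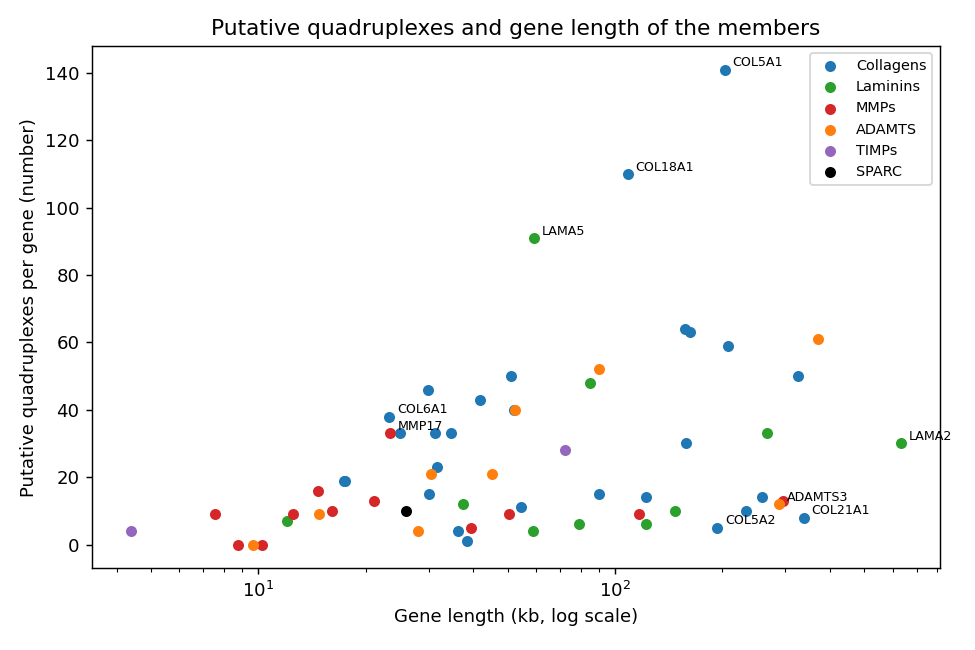
Each point is 1 member gene by its length in kb (horizontal axis, log scale) and the authors' number of putative quadruplexes (vertical axis), coloured by family. COL6A1 reaches 38 within 23.3 kb, while COL5A2 has 5 over 193 kb and COL21A1 has 8 over 338 kb. Lengths are from GENCODE and may differ from the spans behind the PQs: the hg38 count for COL21A1 was 19.

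A count of the motif in hg38 over each GENCODE gene and 2000 bases upstream ordered the members as the PQs did, with Spearman's rho of 0.966 and Pearson's r of 0.990 across 63 members, both counts being made from the letters of the same genes. It equalled the PQs in 12 members and was higher in 51, such as MMP2 (29 against 9, in a gene that spans 117 kb in GENCODE), COL8A2 (32 against 15) and COL18A1 (124 against 110). Per kb of gene with the upstream bases, its median was 0.340 for collagens, 0.416 for ADAMTS proteases, 0.244 for MMPs and 0.108 for laminins. It was 0.169 over the 12950 matched genes of the parental tables. The family medians cover all 34 collagens, 10 ADAMTS proteases, 15 MMPs and 12 laminins, with or without a PQ number. They are therefore not for the same genes as the PQs per kb or as the 12950 genes. In COL5A1 (chr9:134641803-134844843, plus strand) the count found 158 motifs, of which 145 lay in introns, 11 in exons and 2 in the promoter, counted here from 2000 bases before the start to 100 after it. LAMA5 (chr20:62307955-62367312, minus strand) held 97 of its 108 in introns. In ADAMTS1, with 0 PQs, all 4 motifs counted lay in the promoter, and in ADAMTS10, with 21 PQs, 9 of 30 did. COL1A2, with 4 PQs, had 6 of 8 there. How far the PQs cover the promoter was not tested.

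Introns held most of the motifs in each of the 4 larger families, at 79.4% of 1313 in collagens, 87.8% of 287 in laminins, 80.3% of 279 in ADAMTS proteases and 67.7% of 186 in MMPs, beside 76.1% of 167507 over all matched genes of the parental tables. Exons held 197 of the 1313 in collagens, 5.92% in laminins, 10.4% in ADAMTS proteases and 41 of the 186 in MMPs, against 14.2% over all genes. The guanine runs lay on the coding strand in 52.6% of the motifs of collagens and 49.8% of those of laminins, near the 49.9% of all genes. COL1A1, chosen after its values were seen, had 7 on the coding and 17 on the template strand, and COL5A1 had 100 and 58. A motif lay within the promoter as defined above in 22 of 34 collagens (64.7%), 5 of 12 laminins (41.7%), 7 of 15 MMPs (46.7%) and 7 of 10 ADAMTS proteases (70.0%). The share was 55.3% of all matched genes of the parental tables. The family counts of this paragraph include the 12 members that those tables do not list under these symbols, so the gene sets differ. Of these members, COL6A4P1, COL26A1, LAMB2P1 and ADAMTS6 had a promoter motif. The others, among them MMP9, MMP10 and MMP20, had none.

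The number of members listed differed between tables. The tables of CM03 in the resistant line listed 49 of the 75 after 6 h and 60 after 24 h, 54 were listed for GemMIA-R3 against parental cells, and 63 in each table of parental cells, which hold the same 13503 symbols. Over all 16616 symbols, the same tables listed 77.9%, 85.7%, 84.5% and 81.3%, beside 65.3%, 80.0%, 72.0% and 84.0% of the members. All 5 tables listed 42 members (56.0%, beside 65.7% of all symbols): 17 collagens, 8 laminins, 8 MMPs, 5 ADAMTS proteases, TIMP1, TIMP2, SPARC and COL4A3BP. The rule by which the authors kept a gene in a table is not given in the sources used here, so a listing says only that a comparison was deposited for that symbol, and a missing symbol does not show that the gene is silent. The parental tables also use older names, with 87.5% of their symbols current against 91.5% to 92.1% in the others.

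**Figure D4:**
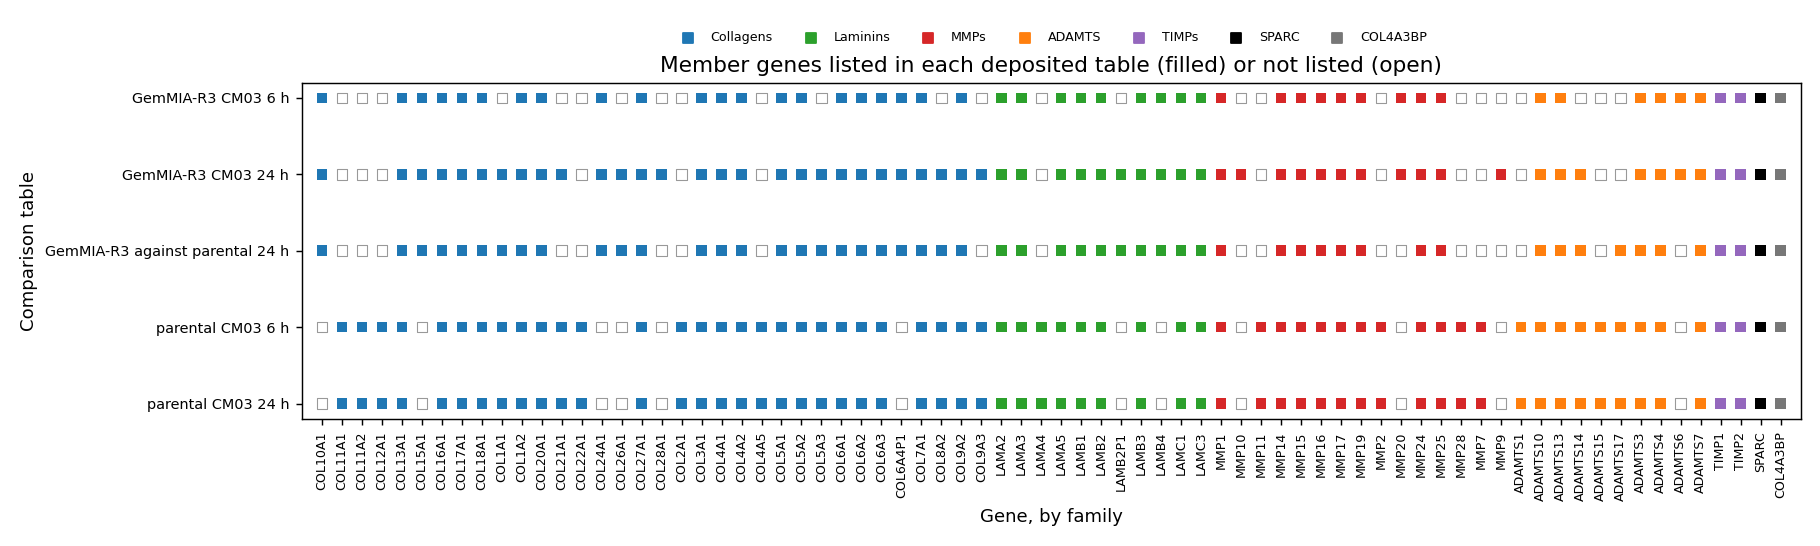
Rows are the 5 deposited tables and columns are member genes grouped by family, with filled squares where the symbol is listed and open squares where it is not. Open squares fall in the collagens, laminins, MMPs and ADAMTS proteases, while TIMP1, TIMP2 and SPARC are filled in all 5 rows. The member that is not reported by name is not drawn.

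In the parental tables alone, 14 members (18.7%) were listed, beside 11.9% of all symbols, among them 6 collagens (COL2A1, COL4A5, COL11A1, COL11A2, COL12A1 and COL22A1), LAMA4, MMP2, MMP7, MMP11, MMP28, ADAMTS1 and ADAMTS15. In neither of them were 12 (16.0%, beside 18.7% of all symbols): COL10A1, COL15A1, COL24A1, COL26A1 (present there as EMID2), COL28A1, COL6A4P1, LAMB4, LAMB2P1, MMP9, MMP10, MMP20 and ADAMTS6. Of these, COL28A1, MMP9 and MMP10 were listed only in the table of CM03 in the resistant line after 24 h. GENCODE has 44 protein-coding collagen genes under the same name rule, of which 11 were not analysed here, as were 1 of 12 laminins, 9 of 24 MMPs, 9 of 19 ADAMTS proteases and 2 of 4 TIMPs. By definition, the 14 members listed in the parental tables alone are absent from the table of GemMIA-R3 against parental cells. That table includes parental libraries of this study. Between the tables of CM03, line and study cannot be told apart, since those of parental cells come from the earlier study.

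Genes that make, link or bind these proteins are described by the same measures. All 16 genes of collagen processing and cross-linking were listed in the parental tables and 11 in each table of CM03 in GemMIA-R3 cells. Over all symbols the shares were 81.3% in the parental tables, and 77.9% after 6 h and 85.7% after 24 h in those of CM03 in GemMIA-R3 cells. The 16 genes had a median of 8 PQs, against 5 over all genes of the parental tables. Within them LOXL2, which cross-links collagen, held 37, BMP1, which cuts the carboxy-terminal propeptide, 35, PLOD1, a lysyl hydroxylase, 29, and the lysyl oxidase LOX held 0. Of 5 basement membrane partners, 4 were in the parental tables, where the proteoglycans HSPG2 and AGRN held 107 and 63 PQs and NID1 and FN1 held 13 and 2. The 11 receptor genes, of which the tables listed 9 to 11, had a median of 8 and a range of 3 (ITGAV and DDR2) to 31 (ITGB4). As for cell type markers, the tables that include GemMIA-R3 cells listed 3 of 4 ductal epithelial markers (KRT8, KRT18 and KRT19), 3 or 4 of 6 fibroblast markers, of which COL1A1, COL1A2 and COL3A1 are members here, 1 of 3 endothelial markers (PECAM1) and 1 or 2 of 2 leukocyte markers. The parental tables listed 4, 4, 0 and 1. Their levels were not analysed, so the labelled cell type was not checked by expression.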

How the data were processed

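RNA was sequenced from GemMIA-R3 and parental MIA PaCa-2 cells in 6 groups of 3 libraries. By the submitters' processing notes and the paper's Methods, the authors used Trimmomatic (0.36) for trimming and STAR (2.5b) for alignment to hg38, marked duplicates by molecular identifier, counted reads and compared groups with SARTools. The deposited tables hold the authors' log2 fold changes, FDRs and subset marks, which were left out as the authors' own comparisons, so no expression test, replicate error or depth is given, although such tests had been planned. The PQs, a whole-number score per gene, were deposited by the authors from their earlier study, and the genome build of that number is not given in the sources used here. Both parental tables give the same PQs for all 13503 genes.

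Symbols were matched to GENCODE release 44 by current symbol, or by an older name or RefSeq synonym that leads to a single gene (12950 of 13503 genes with PQs, the longest gene where a symbol has several). Canonical motifs were counted without overlap on both strands of hg38, and the counter was tested on simulated sequences. Windows before the start are 250 bases from RefSeq, the richest where a gene has several starts, for members and for the genes of the parental tables alike. The motif counts in hg38 and in these windows were added after the tables had been seen. The rule for named genes was the 5 highest and 5 lowest of each family by the quantity described, with all laminins, TIMPs and SPARC (1 member is counted but not reported by name here), and others named, such as partner chains, were chosen after their values were seen. Alternatives were older symbols, opposite-strand names, the other table, the mean and numbers per kb. The members and lists were chosen with earlier results of these data known. Computations used matplotlib 3.10.9, scipy 1.17.1, pandas 2.3.3 and numpy 2.4.6 under Python 3.11.15.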

Additional observations from a re-analysis of the deposited data

How the results depend on the processing

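With the mean in place of the median, the PQs were 35.4 for collagens, 24.7 for laminins, 10.5 for MMPs and 24.4 for ADAMTS proteases, so the laminins, raised by LAMA5, came level with the ADAMTS proteases. Per kb of gene they were 0.454, 0.0996, 0.397 and 0.466 in the same order, which placed the ADAMTS proteases first and the laminins last. The table of 24 h gave the same medians, as it had to, since it holds the same PQs. Replacing older symbols by the current ones left the number of members listed at 49, 60, 54, 63 and 63. No member had an opposite-strand name, so leaving such names out could not change these numbers. RefSeq synonyms, added after the older symbols had changed nothing, gave the same numbers with other members, since COL4A3BP left each table while EMID2 entered the parental tables as COL26A1 and MMP24-AS1 entered the others as MMP24OS. No paired analysis was possible because values per library were not analysed, and for the same reason another normalization, a filter on low counts and leaving out a replicate were not run. The PQs are fixed numbers of letters in a reference, with no replicate error.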
